A study of Triticum aestivum with 161 samples.

Results

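The 149 probe sets described here were those whose level in developing wheat caryopses stood highest in the 2011 season, out of 61178 probe sets on an Affymetrix wheat array. They were chosen from the arrays of plots at Rothamsted given 200 kg/ha of nitrogen (N200). Each array's log2 signal was set relative to the median of that array, which is called the relative level throughout. The season means over 6 cultivars were taken, and each probe set was scored by the smaller of 2 differences, 2011 minus 2009 and 2011 minus 2010. The 150 probe sets of highest score with a 2011 mean log2 signal of at least 7 before centring were taken, and 1 of them was left out. A further 2 probe sets barred by the rule ranked below those 150. The relative levels at Rothamsted N200 therefore chose the members, and differences within those arrays are given as values without a test.

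The study measured grain of the 6 UK wheat cultivars Cordiale, Hereward, Istabraq, Malacca, Marksman and Xi_19 on 161 arrays. All plants were field grown, and caryopses were taken from tagged heads at 21 days after anthesis, so every group shared that stage by label. RAGT and Rothamsted each gave 18 arrays of N200 plots in 2011, and RAGT gave 18 of N200 plots in 2010. At Rothamsted the 2010 season gave 18 arrays each at 100, 200 and 350 kg/ha of nitrogen (N100, N200 and N350), and the 2009 season gave 18, 17 and 18. Each cultivar, site, season and nitrogen level was a group of 3 replicate plots, except Malacca at Rothamsted N200 in 2009, which had 2. The labels call the plots biological replicates.

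At mid grain filling the starchy endosperm, the bulk of the grain, lays down starch and gluten proteins. The embryo beside it goes through maturation, in which late embryogenesis abundant genes such as Em and the Rab dehydrin genes are switched on by abscisic acid. Outside both lie the aleurone and the green pericarp. A whole caryopsis mixes the RNA of all these tissues, so a lower level can come from fewer cells of a type or from less RNA per cell, and these cannot be told apart here.

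Few of the members could be named. The array annotation gave exactly 1 gene to 1273 probe sets, and an informative symbol to 200 of these. It named 4 members, by locus only: LOC542877 (Ta.2786.1.S1_at), LOC542778 (TaAffx.128418.92.A1_x_at), LOC542914 (Ta.2036.1.S1_x_at) and LOC542858 (Ta.796.1.S1_x_at). No member had an informative symbol, so the members are called by their probe set names and no function is given. The probe set names fell into 115 stems. Of these, 24 stems held 2 or more members each and 58 members in all, so the 149 members measured fewer transcripts than their number. Names ending in _x_at, whose probes also match other transcripts, made up 39 members or 26.2%, against 18.9% of the 17280 probe sets that reached the minimum level. Names ending in _a_at, whose probes are shared among transcripts of 1 gene, made up 5 members or 3.36%, against 13.0%. In a hexaploid such as wheat, near-identical copies of a gene on the 3 genomes can share probes, so signals of copies may be mixed in a member.

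The score ran from 1.67 to 5.60 on the log2 scale, with a median of 2.06, and 18 members reached 3. The smaller difference was the one against 2009 in 128 members. Members exceeded 2009 by a median of 2.10 and 2010 by a median of 2.60 at Rothamsted N200. Just inside the limit were Ta.24042.1.A1_at at 1.68, TaAffx.130276.1.S1_at at 1.68 and Ta.10172.1.S1_x_at at 1.67. Just outside were Ta.5056.1.A1_a_at at 1.67, Ta.6231.1.S1_a_at at 1.66 and TaAffx.80103.1.S1_at at 1.66, so the edge of the set has no gap.

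Median relative levels over the members kept the 2011 season apart from the earlier ones at both sites. At Rothamsted N200 the medians were 1.49 in 2009, 0.95 in 2010 and 3.85 in 2011, and at RAGT they were 1.85 in 2010 and 3.62 in 2011. The 2 environments of 2011 held the highest means among the 5 N200 environments for each of the 149 members. The rule itself set Rothamsted 2011 above Rothamsted 2009 and 2010, so only the places of the RAGT means were free to vary. The lowest N200 mean lay in Rothamsted 2010 for 125 members, in Rothamsted 2009 for 19 and in RAGT 2010 for 5. These counts also rest in part on the arrays that chose the members. The N100 and N350 plots of the earlier seasons lay near the N200 plots, at 1.91 and 1.86 in 2009 and at 1.31 and 1.10 in 2010.

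**Figure D1:**
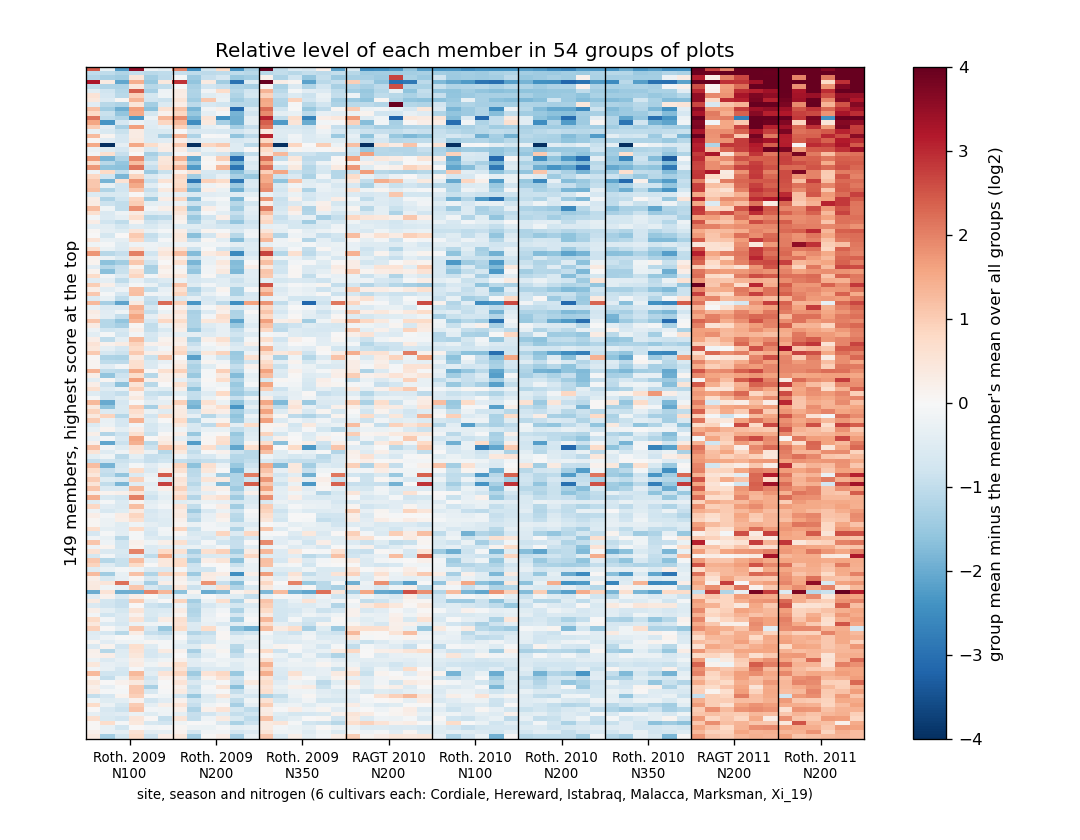
Heat map of the 149 members (rows, highest score at the top) in 54 groups (columns, 6 cultivars in each of 9 environments); colour is the mean relative level of a group minus the member's mean over all groups, in log2 units. The columns of the 2 environments of 2011 are red for nearly every member, and the Rothamsted 2009 columns are uneven among cultivars.

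The 2011 season at RAGT was not used to choose the members, and there too the members were higher in 2011 than in 2010. Of the 149 members, 146 were higher and 0 were lower in RAGT 2011 (limma, adjusted p under 0.05, Benjamini-Hochberg over 61178 probe sets). Over all probe sets 53.3% were called higher and 20.4% lower, so calls alone were common on these arrays. The size of the difference set the members further apart: their median was 1.63 log2 units (0.27 to 6.18), against 0.15 over all probe sets. A difference above 1 was found in 129 members and in 777 of all probe sets, or 1.27%. For 74 members every one of the 18 arrays of RAGT 2011 lay above every one of the 18 arrays of RAGT 2010, and over all probe sets that share was 7.0%. The difference was positive in 6 of 6 cultivars for 131 members, and for 42.8% of all probe sets.

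**Figure D2:**
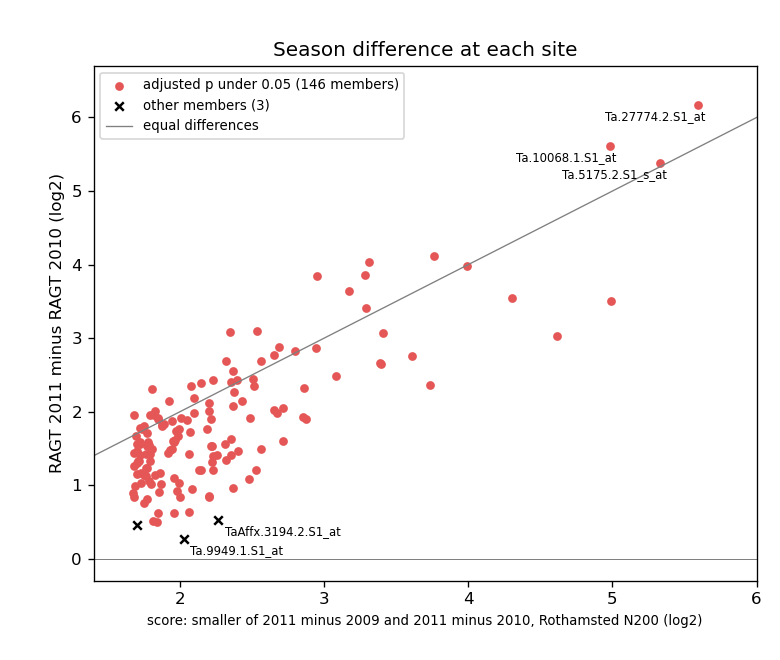
Each point is 1 member; the horizontal axis is its score at Rothamsted N200 and the vertical axis is RAGT 2011 minus RAGT 2010, both in log2 units. The 146 red points had an adjusted p under 0.05, the 3 crosses did not, and the largest difference at RAGT is 6.18.

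Ta.27774.2.S1_at had the highest score and the largest difference at RAGT. Its relative level had a lowest, median and highest array of 1.26, 4.95 and 5.85 in RAGT 2011, against -2.72, -2.18 and -0.19 in RAGT 2010. The groups did not overlap, and the difference was 6.18 (SE 0.49, limma adjusted p = 4.88e-19). At Rothamsted N200 it ran from 3.14 to 5.82 in 2011, while in 2009 its arrays were spread from -2.83 to 5.06. Ta.10068.1.S1_at had 2.25, 4.33 and 6.62 in RAGT 2011, against -2.88, -0.92 and 1.91 in RAGT 2010, a difference of 5.61 (SE 0.45, adjusted p = 7.99e-19). These groups did not overlap either, although single 2009 arrays at Rothamsted N200 reached 6.42. Ta.10895.1.S1_at and Ta.12772.1.S1_at had differences of 4.12 and 4.03.

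Ta.5175.2.S1_s_at separated the seasons with far less spread. Its lowest, median and highest arrays were 2.39, 3.24 and 3.78 in RAGT 2011, against -2.36, -2.21 and -1.85 in RAGT 2010. The difference was 5.38 with a small error (SE 0.07, adjusted p = 2.45e-71). Rothamsted 2011 ran from 3.05 to 3.99, and the highest of all 2009 arrays was -1.51 and that of all 2010 arrays -1.74, so the 2011 arrays lay above every earlier array at both sites. The SD between plots of a group was 0.21, against 1.55 for Ta.27774.2.S1_at. Most arrays of the fit were from 2009 and 2010, where Ta.5175.2.S1_s_at lay at -1.51 or below. Its SD, SE and p therefore rest largely on low signals.

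The 4 members with a locus each differed between seasons at RAGT, 3 of them not when array quality was a covariate. For LOC542914, Ta.2036.1.S1_x_at averaged 7.23 ± 0.28 in RAGT 2011 and 5.73 ± 0.35 in RAGT 2010 (SD, n = 18 each), with no overlap and a difference of 1.5 (limma adjusted p = 3.93e-09). For LOC542778, TaAffx.128418.92.A1_x_at averaged 2.40 ± 0.20 in RAGT 2011 and 0.80 ± 0.24 in RAGT 2010, a difference of 1.59 (adjusted p = 7.28e-28). For LOC542858, Ta.796.1.S1_x_at averaged 6.44 ± 0.21 in RAGT 2011 and 5.14 ± 0.30 in RAGT 2010, a difference of 1.30 (adjusted p = 3.41e-13). The plots of LOC542877 (Ta.2786.1.S1_at) disagreed within a cultivar.

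The 3 members without a call at RAGT had wide overlap between seasons. Ta.9949.1.S1_at averaged 2.5 ± 0.94 in RAGT 2011 and 2.23 ± 0.86 in RAGT 2010 (SD, n = 18 each), a difference of 0.27 (adjusted p = 0.219). Ta.21383.1.S1_x_at differed by 0.45 (adjusted p = 0.0824) and TaAffx.3194.2.S1_at by 0.53 (adjusted p = 0.148). TaAffx.3194.2.S1_at ran from 1.13 to 4.87 in RAGT 2011 and from 0.37 to 4.71 in RAGT 2010. These ranges and SDs take in differences between cultivars. For TaAffx.3194.2.S1_at the cultivar means at RAGT spanned 3.33 (F test, limma adjusted p = 1.74e-05). Other settings called these members in both directions. With array quality as a covariate all 3 were called lower. Ta.9949.1.S1_at was then at -1.31 (limma adjusted p = 0.00613), Ta.21383.1.S1_x_at at -1.46 (adjusted p = 0.0103) and TaAffx.3194.2.S1_at at -2.99 (adjusted p = 3.94e-05). On the RAGT arrays alone Ta.21383.1.S1_x_at (limma adjusted p = 1.62e-07) and TaAffx.3194.2.S1_at (adjusted p = 1.9e-05) were called higher. Ta.9949.1.S1_at was called higher on the deposited scale (0.42, adjusted p = 0.0472) and without Hereward (0.49, adjusted p = 0.0369). The smallest differences among called members were close to these, TaAffx.128418.16.S1_x_at at 0.50 and Ta.13736.1.S1_at at 0.51.

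**Figure D3:**
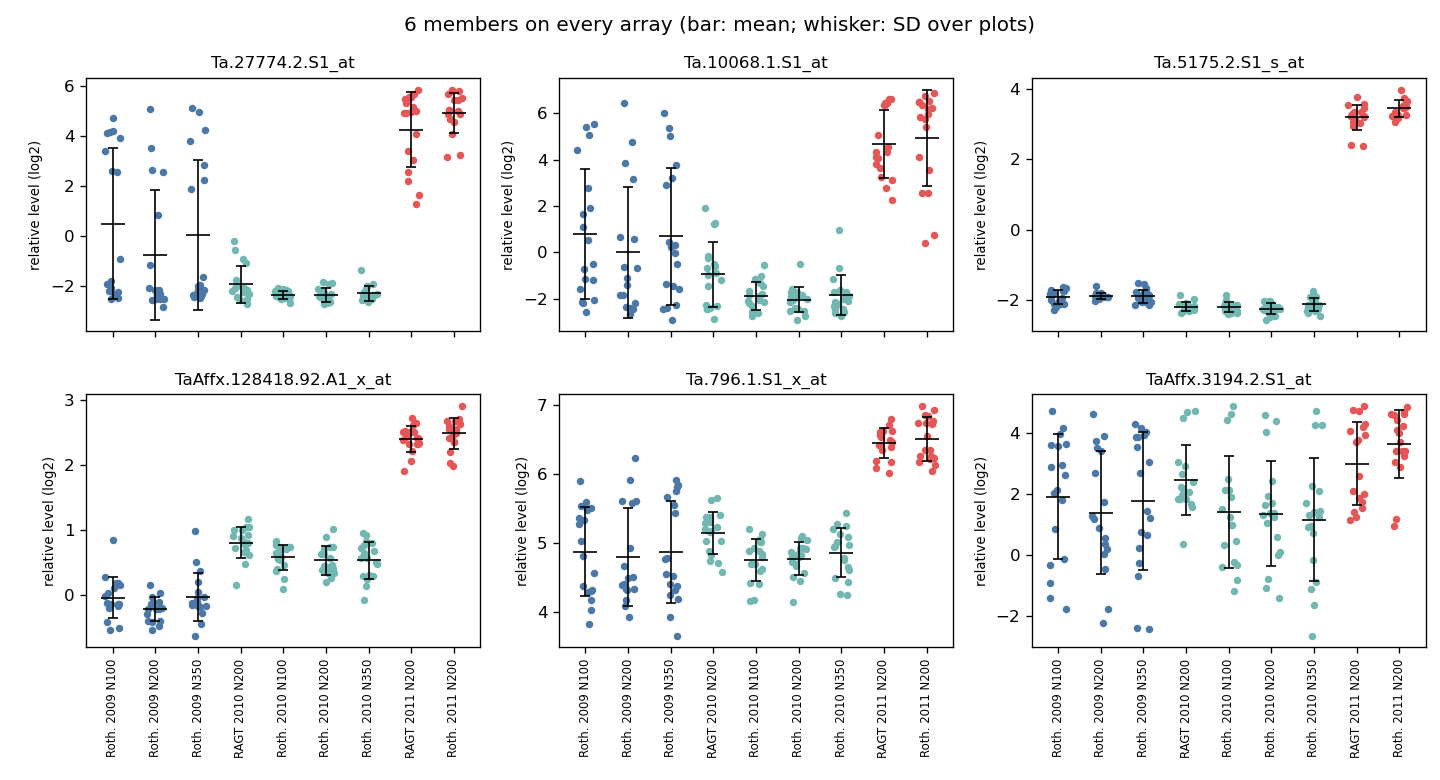
Relative level (log2, vertical axis) of 6 members on every array in 9 environments (horizontal axis; blue 2009, green 2010, red 2011); bars are means and whiskers are SDs over plots. Ta.5175.2.S1_s_at is at least 2.39 on all 2011 arrays and at most -1.51 on all earlier ones, Ta.27774.2.S1_at is spread over single 2009 plots, and TaAffx.3194.2.S1_at overlaps in all seasons.

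Array quality measures moved with the season as well. The 3′ minus 5′ signal of the wheat housekeeping controls, which grows when RNA or its labelled copy is shorter, had a median of 1.62 in RAGT 2011 (1.45 to 1.86) and of 0.92 in RAGT 2010 (0.75 to 1.14). At Rothamsted the medians were 0.76 in 2009, 0.94 in 2010 and 1.59 in 2011. Bacterial spike-in transcripts, which are added to the sample and do not come from the grain, shifted too, with medians of 2.58 in RAGT 2011 and 1.20 in RAGT 2010. The BioB hybridisation spike had a median relative level of 0.09 in RAGT 2011 and 3.08 in RAGT 2010. Since none of the 2011 arrays overlapped the earlier ones in the housekeeping measure, season and array processing cannot be told apart. With that measure as a covariate in the fit, 38 members were called higher and 16 lower in RAGT 2011, and the median difference was 0.16. Over all probe sets that fit called 25.3% higher and 10.6% lower, with a median of 0.11, so the members' shares were then close to the background. Under it the difference of Ta.5175.2.S1_s_at was 5.37 (adjusted p = 4.44e-45), that of Ta.27774.2.S1_at was 1.14 (adjusted p = 0.309), that of Ta.10068.1.S1_at was 1.44 (adjusted p = 0.171), and that of Ta.2036.1.S1_x_at was -0.66. Of the other members with a locus, Ta.796.1.S1_x_at differed by 0.16 (adjusted p = 0.674) and Ta.2786.1.S1_at by 2.03 (adjusted p = 0.0776), while TaAffx.128418.92.A1_x_at was still called at 1.29 (adjusted p = 7.57e-08).

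Among the named genes on the array, those of the maturing embryo went the other way from the members. Of 9 embryo marker probe sets, 0 were higher and 8 were lower in RAGT 2011, and none was a member. Their summed level ran from 3.56 to 5.80 in RAGT 2011, against 5.54 to 7.39 in RAGT 2010. Rab15, a dehydrin gene (Ta.2704.1.S1_x_at), averaged 2.48 in RAGT 2011 and 4.50 in RAGT 2010, a difference of -2.02 (SE 0.27, adjusted p = 4.03e-10). EM, a late embryogenesis abundant gene, has 2 probe sets of unequal difference. The one of higher mean, Ta.2798.1.S1_x_at, averaged -0.62 in RAGT 2011 and 0.66 in RAGT 2010, a difference of -1.29 (adjusted p = 0.00265), and Ta.2798.1.S1_s_at averaged -2.34 in RAGT 2011 and 0.98 in RAGT 2010, a difference of -3.32. Most dividing-cell markers (histones and tubulins) went with the members: 17 of 19 probe sets were higher and 2 lower. Over all probe sets 53.3% were higher and 20.4% lower. The dividing-cell marker of highest mean level, the tubulin TUBA-2D (Ta.812.1.S1_x_at), was lower, with a difference of -0.08 (limma adjusted p = 0.0332).

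The other lists of annotated genes held no member. Over all probe sets 53.3% were called higher and 20.4% lower in RAGT 2011, and the counts below are to be read beside these shares. The histone and cell division list shares histones and tubulins with the dividing-cell markers. Likewise, the LEA and abscisic acid list shares its Em and Rab15 genes with the embryo markers. Their counts therefore repeat part of those given above. In RAGT 2011 the histone and cell division list had 23 probe sets higher and 3 lower of 28, with a median difference of 0.69. The LEA and abscisic acid list had 0 higher and 8 lower of 10 (median -2.0), and the storage protein list had 0 higher and 10 lower of 17 (median -0.17). Photosynthesis genes had 17 higher and 4 lower of 32, and starch and sugar metabolism 5 and 2 of 10, both near the shares over all probe sets. Oxidative stress had 6 higher and 2 lower of 9, and inhibitors of amylases and proteases 4 and 6 of 11. Defence had 1 and 5 of 8, and hormone metabolism 4 and 0 of 4. The heat shock list held only hsp16.9A, which differed by -1.67 (adjusted p = 9.94e-07). Marker sums of the starchy endosperm, at medians of 12.1 in RAGT 2011 and 12.2 in RAGT 2010, were close, so markers of the main tissue of the caryopsis were present in both seasons.

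Taken over all plots not used by the rule, the embryo genes also went against the members from plot to plot within groups, which share site, season, cultivar and nitrogen level. The deviation of each plot from its group mean was taken over the 36 RAGT arrays and the 72 Rothamsted arrays of N100 and N350, which the rule did not use. Against Rab15, the members had a median r of -0.71 (Spearman's rho -0.59), and 120 of 149 had r at or below -0.5, compared with 8.72% of probe sets with a mean log2 signal of at least 6. Leaving out the 2 most extreme arrays gave -0.67. Against EM (Ta.2798.1.S1_x_at) the median r was -0.65, with 110 members at or below -0.5. The closest single members were Ta.28328.2.S1_x_at at -0.93 and Ta.2036.1.S1_x_at at -0.92 with Rab15. The points share arrays and cultivar groups, so these values are a description.

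The relation was tightest in the 2009 season. Within Rothamsted 2009 the median r with Rab15 was -0.83, within Rothamsted 2010 it was -0.33, within RAGT 2010 -0.10 and within RAGT 2011 -0.53. With EM and EMH2, another Em gene, the median r within RAGT 2010 was 0.07 and 0.01, with 69 and 73 of 149 members below 0. Rab15 itself varied most in 2009, with an SD between plots of 1.36, against 0.19 in RAGT 2011. The members varied most there too: their median SD between plots of a group was 0.95, 0.84 and 0.89 at N100, N200 and N350 in Rothamsted 2009, against 0.19 in RAGT 2011 and 0.26 in RAGT 2010. Array medians over the members ran from 0.23 to 3.46 in Rothamsted 2009, and 9 of its 53 arrays reached the lowest 2011 array, which stood at 2.84. No array of 2010 did, with highest arrays of 2.25 at RAGT and 1.87 at Rothamsted. The highest 2009 array was Cordiale N200 replicate 1, with a member median of 3.46 and a Rab15 level of 2.04.

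**Figure D4:**
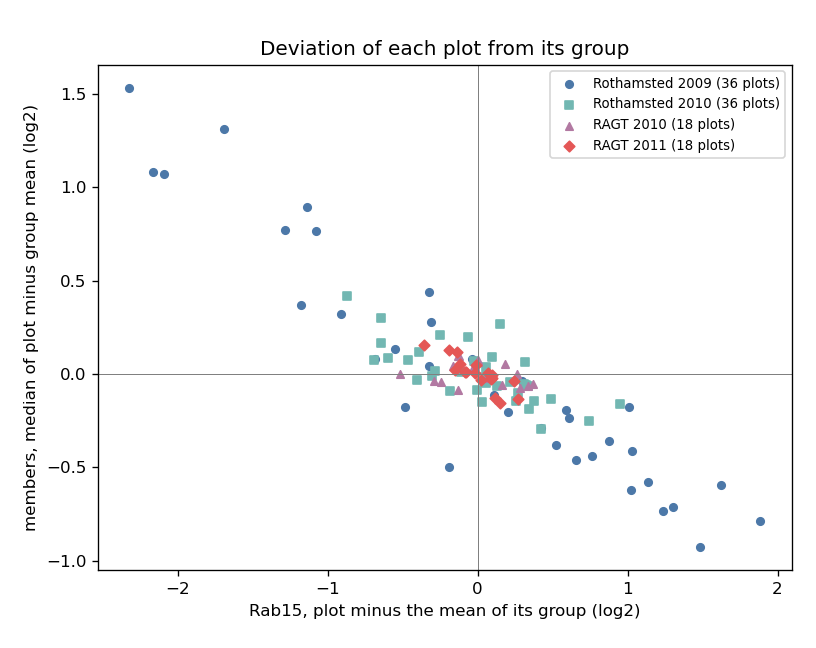
Each point is 1 plot among those not used by the rule; the horizontal axis is the deviation of Rab15 from its group mean and the vertical axis is the median deviation of the members, both in log2 units. The Rothamsted 2009 plots span -2.32 to 1.88 in Rab15 and -0.93 to 1.53 in the members and fall from upper left to lower right, and the RAGT plots lie close to 0.

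Members moved together from plot to plot. The median pairwise r between members was 0.60 (5th percentile 0.09, 95th 0.87). Within a stem r ran from 0.91 to 0.99 over the 4 members of Ta.10172, but as low as 0.44 in TaAffx.128418 and 0.49 in TaAffx.128643. There were 8 members with a median r under 0.2 with the others: Ta.5175.2.S1_s_at at 0.03, TaAffx.107215.2.S1_at at 0.04, Ta.1207.1.S1_s_at at 0.15, the pair of Ta.6665, the pair of TaAffx.48201 and Ta.10164.1.S1_x_at. Ta.1207.1.S1_s_at, TaAffx.107215.2.S1_at and the Ta.6665 pair were named after their values were seen. On the arrays of 2009 and 2010 Ta.5175.2.S1_s_at lay at -1.51 or below, so its r rests largely on low signals and does not show whether it followed the other members.

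Between the 2 earlier seasons the members were mostly lower in 2010. In the N100 and N350 plots of Rothamsted, 109 members were lower and 5 higher in 2010 than in 2009 (limma, adjusted p under 0.05), against 29.8% lower and 38.3% higher of all probe sets. The median difference was -0.62 (-2.60 to 0.59). The largest falls were in Ta.10068.1.S1_at and Ta.27774.2.S1_at, both at -2.60, Ta.30829.1.S1_at at -1.66 and Ta.3259.1.S1_at at -1.62. Ta.3259.1.S1_at at N350 averaged 1.04 ± 0.56 in 2010 and 2.70 ± 1.24 in 2009 (SD, n = 18 each), and the groups overlapped. The risen members included TaAffx.128418.92.A1_x_at at 0.59 (adjusted p = 6.49e-14), TaAffx.4544.2.S1_s_at at 0.47, Ta.10164.1.S1_x_at at 0.33 and TaAffx.128418.16.S1_x_at at 0.29. The call of TaAffx.128418.16.S1_x_at was lost in 5 settings, among them the deposited scale (0.12, limma adjusted p = 0.123) and quantile normalization (0.11, adjusted p = 0.17). That of Ta.10164.1.S1_x_at was lost on the deposited scale (0.16, adjusted p = 0.0762) and without replicate 3 (0.18, adjusted p = 0.107). Embryo marker sums were again opposite, with a median of 7.92 in 2010 and 6.01 in 2009 at N350. The count of higher members was 16 without replicate 1, 2 without replicate 3 and 3 without Xi_19, while that of lower members ran from 85 to 116 without 1 replicate. These counts are given without the share over all probe sets.

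Sites differed less than seasons in 2011. RAGT minus Rothamsted had a median of -0.19 over the members in 2011 (-1.55 to 0.39), and 25 members were higher at RAGT. Most below were Ta.9957.1.S1_at at -1.55, TaAffx.48201.1.S1_x_at at -1.23 and Ta.27719.1.S1_at at -1.17, and most above were Ta.8220.3.S1_x_at at 0.39, Ta.8220.1.S1_at at 0.35 and Ta.9967.2.S1_s_at at 0.31. In 2010 the difference at N200 was the other way, with a median of 0.63 (-0.46 to 2.62) and 141 members higher at RAGT. Against the Rothamsted N100 and N350 plots of 2010, 137 members were higher at RAGT in each case. Over all probe sets the medians at N200 were 0.0006 in 2011 and 0.0027 in 2010. The Rothamsted N200 arrays chose the members, as high in 2011 and lower in 2010. That choice by itself tends to place RAGT below Rothamsted in 2011 and above it in 2010. None of these differences was tested.

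In 2011 the site difference was largest in Hereward and Istabraq. The members' median of RAGT minus Rothamsted was -0.67 in Hereward and -0.76 in Istabraq, with 13 and 14 members higher at RAGT. It was 0.36 in Malacca, with 105 members higher at RAGT, and -0.08, 0.11 and 0.04 in Cordiale, Marksman and Xi_19. Hereward and Istabraq also had the highest Rab15 in RAGT 2011, at 3.60 and 3.21, against 1.45 to 2.47 in the other cultivars, and at Rothamsted 2011 they had 2.87 and 2.54. The part of these genes in the site difference was not tested.

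Cultivars differed within RAGT for many members. The F test over the 6 cultivars, averaged over 2010 and 2011, called 78 of 149 members, against 22.5% of all probe sets (limma, adjusted p under 0.05). In a fit of the 36 RAGT arrays alone, where plots varied less, it called 139, against 36.5% of all probe sets, and in the larger fit it called 47 without replicate 2 and 43 without replicate 3. No share over all probe sets is given for the fits without a replicate. The strongest call was TaAffx.51309.1.S1_at (adjusted p = 1.31e-24), in which Hereward stood apart. Hereward had 2.0, 2.07 and 1.71 in RAGT 2011 and -2.19, -1.96 and -1.36 in RAGT 2010, while Marksman had 6.28, 6.29 and 6.31 in RAGT 2011 and 3.48, 4.61 and 4.72 in RAGT 2010. The spread among cultivar means was 5.24, and without Hereward it was 1.07 (adjusted p = 0.0528).

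Ta.556.2.A1_at split the cultivars into 2 sets (adjusted p = 1.79e-21). In RAGT 2011 Marksman, Xi_19 and Hereward averaged 5.96, 4.92 and 4.91, and Malacca, Cordiale and Istabraq averaged 1.82, 1.19 and 0.96. In RAGT 2010 the same order of sets held, at 4.74, 3.99 and 3.71 against 0.05, 0.83 and 0.12. In TaAffx.128643.3.S1_at it was Malacca that stood apart (adjusted p = 1.57e-14). Malacca averaged -0.90 in RAGT 2011 and -1.39 in RAGT 2010, while Cordiale averaged 6.10 in RAGT 2011 and 3.50 in RAGT 2010. Another member of the same stem, TaAffx.128643.6.S1_at, averaged 2.99 in its RAGT 2011 plots. Ta.13736.1.S1_at was highest in Xi_19, at 3.50 in RAGT 2011 and 2.51 in RAGT 2010, against 0.25 to 0.56 in the other cultivars in 2011.

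**Figure D5:**
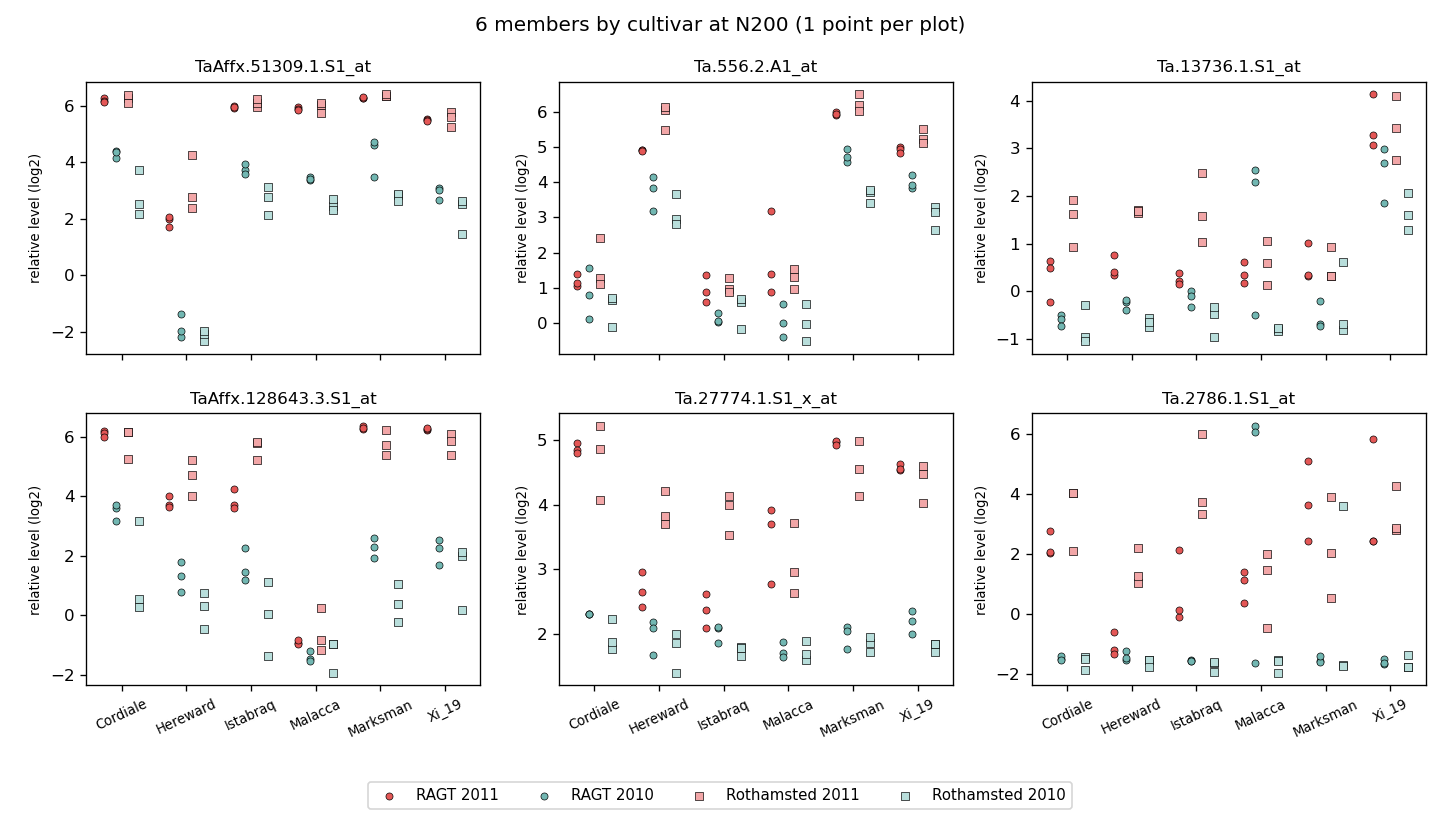
Relative level (log2, vertical axis) of 6 members in each plot of 6 cultivars (horizontal axis) at N200; circles are RAGT and squares Rothamsted, with 2011 in red and 2010 in green. Hereward is low for TaAffx.51309.1.S1_at, Malacca is low for TaAffx.128643.3.S1_at in every plot shown, and Ta.2786.1.S1_at reaches 6.27 and 6.07 in 2 Malacca plots of RAGT 2010.

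The size of the season difference itself differed among cultivars for 24 members, against 2.78% of all probe sets (interaction F test, limma, adjusted p under 0.05). On the RAGT arrays alone the count was 111, against 16.6% of all probe sets, and in the fit of all 36 RAGT and 72 Rothamsted arrays it was 7 without replicate 2 and 9 without replicate 3. Here too no share over all probe sets is given for the fits without a replicate. By cultivar, the members' median of RAGT 2011 minus 2010 was 2.01 in Marksman, 1.86 in Malacca, 1.81 in Xi_19, 1.72 in Cordiale, 1.44 in Hereward and 1.29 in Istabraq. Ta.27774.1.S1_x_at averaged 4.95 in Marksman and 4.86 in Cordiale in RAGT 2011, against 1.97 and 2.30 in RAGT 2010, while Istabraq had 2.36 against 2.02 (adjusted p = 7.39e-07). Ta.10042.1.S1_at had 3.93 in Marksman and 1.22 in Hereward in RAGT 2011, against 0.69 and 0.47 in RAGT 2010 (adjusted p = 0.000109). TaAffx.128643.7.S1_at followed the same cultivars, and Ta.27719.1.S1_at did not, being highest in Malacca at 1.34 and Xi_19 at 1.16 in RAGT 2011.

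For LOC542877 (Ta.2786.1.S1_at) the plots of Malacca went against the season difference of the other cultivars. Malacca had 6.27, 6.07 and -1.62 in its 3 plots of RAGT 2010 and 1.12, 0.37 and 1.42 in RAGT 2011. The other 5 cultivars averaged -1.58 to -1.41 in RAGT 2010, and in RAGT 2011 they ran from -1.03 in Hereward to 3.73 in Marksman. At Rothamsted N200 in 2010, 1 Marksman plot had 3.61 while the others of that cultivar had -1.68 and -1.71. The range of season differences among cultivars was 7.85 (interaction adjusted p = 0.000566), and over all cultivars the difference was 2.37 (SE 0.43, adjusted p = 9.85e-07). TaAffx.48201.1.S1_s_at was high in the same plots, with 4.52, 3.13 and -2.07 in Malacca of RAGT 2010 and 2.30 in that Marksman plot. Ta.13736.1.S1_at was high in those Malacca plots too, at 2.54 and 2.30, against -0.51 in the third.

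Nitrogen calls among the members were about as frequent as among all probe sets, or less so. Plots of a group varied more in the members, with a median SD of 0.62, against 0.18 over probe sets with a mean log2 signal of at least 6. A nitrogen difference of a given size was thus less likely to be called in a member, and few calls do not show a lack of response. Between N350 and N100 at Rothamsted, over 2009 and 2010, 7 members were higher and 17 lower (limma, adjusted p under 0.05), against 9.37% and 12.4% of all probe sets. The median difference was -0.07 (-0.67 to 0.75). In 2009 alone 0 members were called in either direction, against 0.721% higher and 0.765% lower of all probe sets, and 10 members had an unadjusted p under 0.05. In 2010 alone 7 were higher and 18 lower, against 7.81% and 11.1%. The pooled counts were 16 higher and 8 lower without replicate 1, 1 and 32 without replicate 2, and 1 and 2 without replicate 3. Without Malacca 3 members were lower, and without Xi_19 there were 11. Shares over all probe sets are not given for these reduced fits, so a changed count may not be particular to the members.

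The largest nitrogen differences were 0.75 in Ta.22984.1.S1_x_at, 0.71 in Ta.3249.1.S1_at and Ta.10164.1.S1_x_at and 0.70 in Ta.24730.2.S1_x_at among higher members. Among lower members they were -0.67 in Ta.1345.1.S1_x_at and Ta.837.1.S1_at, -0.62 in Ta.9481.2.S1_at and -0.59 in Ta.28766.3.S1_at. Several of these calls were lost when plots were left out. Without Malacca, Ta.837.1.S1_at was at -0.37 (limma adjusted p = 0.359) and Ta.28766.3.S1_at at -0.33 (adjusted p = 0.258), and both also lost the call without replicate 1 or 3. Ta.22984.1.S1_x_at, Ta.3249.1.S1_at and Ta.24730.2.S1_x_at lost it without replicate 2 or 3, with Ta.3249.1.S1_at at 0.39 (adjusted p = 0.208) without replicate 2. Each of the 8 nitrogen differences with all plots kept was smaller than the same member's season difference at RAGT. The members were chosen for a large season difference and not by nitrogen, so this order cannot weigh nitrogen against season. By the interaction test with no plot left out, 1 member was called, Ta.10164.1.S1_x_at (interaction 1.07, adjusted p = 5.42e-05), where 0.247% of all probe sets were called in that direction and 0.227% in the other. Ta.28766.3.S1_at had an interaction of -1.18 that was not called (limma adjusted p = 0.126), but was at -1.83 without replicate 1 (adjusted p = 0.000865), where 25 members were called lower. For that fit the share over all probe sets is not given. For Ta.10164.1.S1_x_at the interaction was 0.79 (limma adjusted p = 0.211) without replicate 3 and 0.72 (adjusted p = 0.0646) without Malacca. Its means over the cultivars in 2010 were 0.38 at N100, 0.95 at N200 and 1.62 at N350, and in 2009 they were 0.59, 0.63 and 0.76. Even at N350 in 2010 its highest plot, at 3.49, was within the range of RAGT 2011, which ran from 2.0 to 3.75, and its lowest, at 0.48, was below it.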

How the data were processed

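Per the labels' protocols, RNA of whole caryopses was labelled with biotin and hybridised to Affymetrix wheat arrays. The deposited values, in 161 columns that were all used, are log2 signals on which, per the submitters' processing notes, the authors used RMA, a method that corrects background, normalizes arrays and summarises probes. The table held 61288 probe sets, 110 of them Affymetrix controls, with values of 1.59 to 15.06 on 161 arrays. The 1st percentile of the arrays was 2.29 to 2.36 in 2009, 2.12 to 2.19 in 2010 and 2.57 to 2.61 in 2011, so the seasons do not share 1 distribution. Each array was therefore centred on its median, which leaves such differences in shape.

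limma 3.58.1 (R 4.3.3) fitted a mean for each cultivar, nitrogen level, site and season on the arrays the rule did not use, 36 from RAGT and 72 from Rothamsted at N100 and N350, with 72 residual degrees of freedom and Benjamini-Hochberg adjustment over 61178 probe sets. A call is an adjusted p under 0.05. On simulated data of 61178 probe sets, 100 season changes of each size were planted in probe sets with a mean log2 signal of at least 6. The season comparison at RAGT recovered 94% of changes of 0.5 and 99% of changes of 1 log2 unit. The simulation held no other season difference. The median SD between plots of a group was 0.18 in probe sets of that mean and 0.62 in the members, so these rates do not carry over to the members. The number of arrays limits the precision, and arrays give no depth.

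The members and gene lists were chosen with earlier results of these data known. Named members were the 4 with a locus, the 10 of highest score, those on each side of the limit, and the most extreme by each comparison or by spread between plots (3 to 5 per direction). Named genes of the lists were the probe sets of highest mean level, to which Ta.2798.1.S1_s_at of EM was added after its values were seen. Alternatives tried were the deposited scale, quantile normalization, a minimum mean of 6, array weights, a moderated trend, the RAGT or Rothamsted arrays alone or all arrays, replicate blocks, the 3′ minus 5′ covariate, leaving out a cultivar or replicate, and, chosen after seeing the data, leaving out 4 arrays far from their group. Gene names came from the array annotation, updated through RefSeq.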

Additional observations from a re-analysis of the deposited data

Results flagged for a closer look

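The season difference at RAGT varied among cultivars, by the interaction test, in 24 members. The smallest p-values were those of Ta.27774.1.S1_x_at, whose cultivar differences spanned 2.64 log2 units, TaAffx.128643.7.S1_at (2.12), Ta.27719.1.S1_at (1.59) and Ta.10042.1.S1_at (2.49). Without replicate 2, Ta.27719.1.S1_at had an adjusted p of 0.0574 (limma). Without replicate 3, Ta.27719.1.S1_at had an adjusted p of 0.0581 and Ta.10042.1.S1_at of 0.0916 in limma, at 1.56 and 2.30.

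By the interaction test the nitrogen difference was called as differing between seasons in 1 member, Ta.10164.1.S1_x_at, by 1.07 (N350 minus N100 in 2010 minus the same in 2009). Without Malacca it was 0.72 (limma adjusted p = 0.0646), and without replicate 3 it was 0.79 (adjusted p = 0.211).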

How the results depend on the processing

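The season count at RAGT kept 141 to 146 members higher without 1 replicate and 0 lower, but the 3′ minus 5′ covariate gave 38 higher and 16 lower. Under it the sign turned in Ta.2036.1.S1_x_at (-0.66), Ta.28328.2.S1_x_at (-0.19), Ta.9949.1.S1_at (-1.31), Ta.21383.1.S1_x_at (-1.46), TaAffx.128418.16.S1_x_at (-0.32) and TaAffx.3194.2.S1_at (-2.99); the covariate follows the season closely. The median difference was 1.78 on the deposited scale and 1.45 after quantile normalization.

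For 2010 minus 2009 at Rothamsted, 5 members higher became 2 on the deposited scale, 3 after quantile normalization, with the covariate or without Xi_19, 8 with array weights, 12 without the far arrays and 2 to 16 without 1 replicate. For N350 minus N100, 7 higher became 13 with the covariate and 1 to 16 without 1 replicate; 17 lower became 11 on Rothamsted arrays alone or without Xi_19, 26 with weights, 3 without Malacca and 2 to 32 without 1 replicate. For nitrogen by season, 1 higher became 0 without Malacca and 0 to 2 without 1 replicate; 0 lower became 2 with weights, 1 without Malacca or the far arrays and 0 to 25 without 1 replicate.

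For cultivars at RAGT, 78 became 139 on RAGT arrays alone, 124 with weights and 43 to 82 without 1 replicate. For cultivar by season, 24 became 111 on RAGT arrays alone, 68 with weights, 40 without the far arrays and 7 to 19 without 1 replicate. At a mean of at least 6, which only 112 of the members reached, it was 9. The RAGT minus Rothamsted median of 2010 was 0.59 to 0.62 without 1 replicate. The RAGT-only fits held plots that vary less, and some other fits held fewer plots, but the cause of these changes was not tested. For most of these settings the share over all probe sets is not given, so a changed count may not be particular to the members.

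Replicate numbers were not taken to pair plots, since the labels do not say so and not every same-numbered pair correlated above 0.1. As a hint from the data, plot deviations had a median r of 0.0373 to 0.168 for plots of the same number, against -0.082 to -0.0156 for other numbers, and 100 of 161 arrays correlated best with their own number. The replicate block gave 147 higher for season, 88 for cultivars, 28 for cultivar by season, and 8 higher and 20 lower for nitrogen, and changed no count by over 1.5 times. The rule itself shared 147 members on the deposited scale, 133 after quantile normalization, 137 to 140 without a cultivar, 131 to 138 without a replicate, and 128 and 114 at minimum levels of 6 and 8. Among single members and medians, 941 of the recomputed values kept side and direction, 33 lost and 20 gained a call. Season and array processing cannot be told apart in this design.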

Other observations

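A plot outside RAGT showed the levels of LOC542877 (Ta.2786.1.S1_at) and TaAffx.48201.1.S1_s_at that stood out in 2 Malacca plots of RAGT 2010. In Malacca at Rothamsted N100 in 2009, LOC542877 had -1.01, -1.68 and 3.03 in replicates 1, 2 and 3, and TaAffx.48201.1.S1_s_at had -1.41, -1.97 and 2.30. In the 3 Malacca plots of RAGT 2010 the median over all members was 1.49 to 1.76, within the 1.46 to 2.25 of all RAGT 2010 plots. The cause was not tested.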
